A study of Mus musculus with 9 samples.

Results

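Chromatin accessibility after knockdown of Smarcc1 was compared with that of the non-silencing control (Nons) at day 4 of mouse embryonic stem cell (mESC) differentiation, over all windows of the genome with a value in both libraries. These were 832979 of the 833294 deposited windows, 789790 on chromosomes 1 to 19 and 43189 on the X, and 65 further windows on these chromosomes lacked a value in 1 or both libraries. The cells were female FVB/CAST F1 mESCs, from crosses of FVB/NJ dams with CAST/EiJ sires. They were expanded in 2i medium, which holds mESCs in a naive state, and weaned into DME HiHi medium to differentiate without direction to a lineage. Both arms were transduced with a short hairpin RNA on day 2 and selected with puromycin on day 3, so the arms shared these steps and differed in the hairpin. They were also separate cultures, enzyme reactions and libraries, which cannot be told apart from the hairpin with 1 library per arm. The whole series held 9 libraries, the pair compared here, 1 undifferentiated library at day 0, before transduction, and 1 library of each arm at days 5, 6 and 7. There was 1 library per arm at day 4 and no replicate, so no p-value was given. The spread quoted below is the standard deviation (SD) over the 19 autosomes of the same pair of libraries, which holds no variation between separate cultures or library preparations. The knockdown rested on 1 hairpin, reads from the FVB and CAST alleles were merged, and the assay measured no RNA, so neither the loss of Smarcc1 nor the state of the cells could be checked from marker genes. The read depth is unknown, and no counting interval could be computed.

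Smarcc1 (BAF155) is a core scaffold subunit of the BAF complex, the mammalian SWI/SNF chromatin remodeller, which uses the energy of ATP to slide or evict nucleosomes and is known for keeping promoters and enhancers open. In embryonic stem cells it belongs to a specialised form of the complex, esBAF. NOMe-seq (nucleosome occupancy and methylome sequencing) reads accessibility with a bacterial enzyme that methylates cytosines in GpC dinucleotides of fixed nuclei. A cytosine wrapped in a nucleosome is shielded, so a higher percent GpC methylation stands for more accessible DNA. GpC cytosines followed by a G are left out, since the cell's own CpG methylation would be read there.

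The hairpin oligo of the knockdown arm is shown because it defines the arm. Capitals mark the guide, by the usual layout of this hairpin type.
Smarcc1.6: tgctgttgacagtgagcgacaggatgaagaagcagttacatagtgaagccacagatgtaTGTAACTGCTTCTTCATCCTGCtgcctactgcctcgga
The complement of the 22-base guide occurred once on chromosomes 1 to 19 and X of GRCm38, at chr9:110177472-110177493 on the plus strand, inside a coding exon of Smarcc1.

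The level was lower in the knockdown across the genome. The median over autosomal windows was 13.95% in Nons and 11.11% in the knockdown, and the mean was 14.6% and 11.8%. At day 0 the median was 11.29%, so the knockdown at day 4 lay near the undifferentiated library and Nons above it. The median of the paired difference, knockdown minus Nons, was -2.80 percentage points (SD over autosomes 0.0428), and 66.0% of autosomal windows were lower in the knockdown. The ratio of the autosomal means, knockdown to Nons, was 0.808 (SD over autosomes 0.00234). Every autosome shared in the difference, from -2.90 points on chromosome 16 to -2.71 on chromosome 7, and the X, at -2.75, lay between them. All 2548 bins of 1 Mb with at least 100 windows had a lower mean in the knockdown. Single windows were noisy, with a Pearson correlation between both libraries of 0.186 over windows, which are not independent.

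Mitochondrial DNA, which is not packed in nucleosomes, was measured in the same libraries in 4 windows. Its mean level was 86.85% in Nons and 85.19% in the knockdown, a ratio of 0.981, compared with 83.52% at day 0. All 4 windows were lower in the knockdown, so the mitochondrial and nuclear levels moved in the same direction by unequal proportions. How much of the library-wide difference came from the enzyme reaction, the nuclei or the chromatin was not tested.

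How a gene group reads once the library-wide difference is removed depends on whether that is done as a constant or as a proportion. Autosomal windows were put into 10 equal groups by their mean level in the 7 libraries outside the comparison. From the lowest to the highest group, the mean level of Nons went from 13.1% to 18.95% and that of the knockdown from 10.53% to 15.18%. The difference was -2.57 points in the lowest of these groups, -2.64 in group 5 and -3.76 in the highest. The ratio of means barely moved, with 0.804 in the lowest group, 0.812 in group 5 and 0.801 in the highest. A line through the 10 pairs of means had a slope of 0.791 and an intercept of 0.248%. Over these groups the ratio varied less than the difference, which was nearly flat in the lower groups and grew in the upper ones, and strata drawn from the day 0 library alone gave a slope of 0.833. In 10 equal groups by window length the ratio lay between 0.803 and 0.810, by GC content between 0.804 and 0.812, and by repeat content between 0.802 and 0.812.

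**Figure D1:**
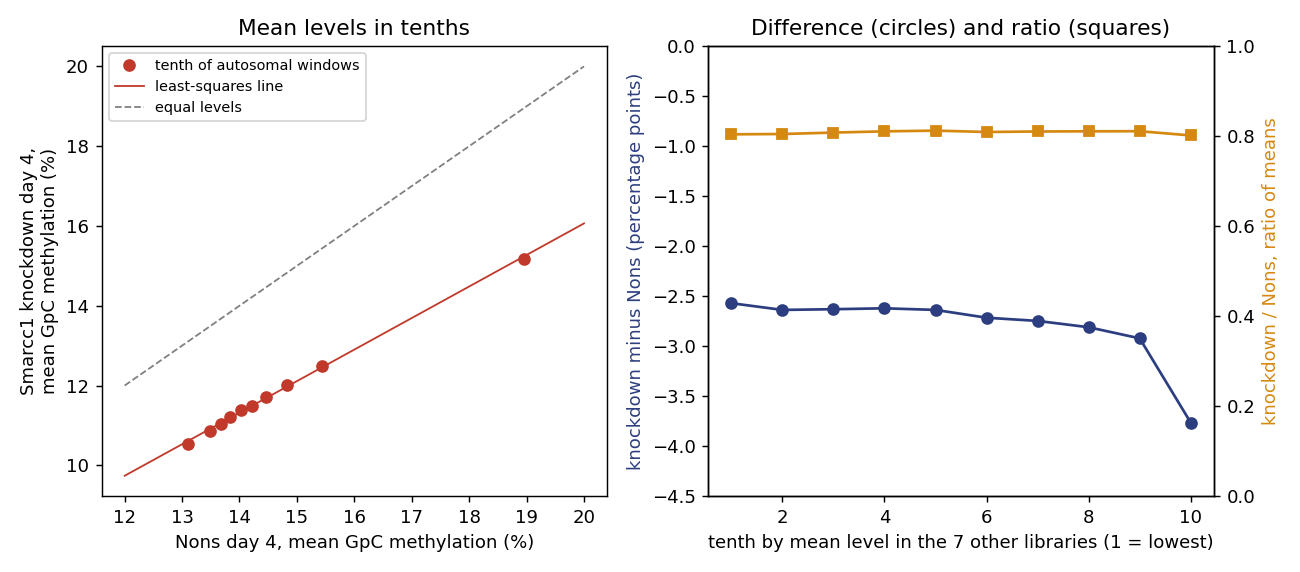
Left, mean GpC methylation (percent) of 10 equal groups of autosomal windows, ordered by their level in the 7 other libraries, in Nons (x axis) and Smarcc1 knockdown (y axis) at day 4, with the least-squares line (slope 0.791) and the line of equal levels. Right, the difference in percentage points (left axis) grew from -2.57 to -3.76 with the level, while the ratio of means (right axis, from 0) stayed between 0.801 and 0.812.

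Results are therefore given in 2 forms. The centred difference is the window's difference minus the library-wide difference of -2.80 points, which treats the shift as a constant. The ratio of mean levels, or the difference after the knockdown was multiplied by 1.256 (the ratio of the autosomal medians), treats it as a proportion. Of all windows, 7.65% had a centred difference below -10 points and 7.59% above 10 points, and these shares are the background for the counts below.

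Promoter windows, defined here by the start of a coding gene or of a long non-coding RNA (lncRNA) gene inside the window, had the higher levels and the larger difference in points. In 30210 autosomal promoter windows the mean was 19.07% in Nons and 15.3% in the knockdown, compared with 14.42% and 11.65% in other windows. The centred median was -0.824 points in promoter windows and 0.0247 in the others, a promoter excess of -0.849 points (SD over autosomes 0.337) that was negative on 19 of 19 autosomes. As a proportion less was left. The ratio of means was 0.802 in promoter windows (SD over autosomes 0.00997) and 0.808 in the others. The promoter ratio was the lower one on 14 of 19 autosomes, with a mean difference of -0.00626 (SD over autosomes 0.00932). After ratio scaling the promoter excess was -0.179 points. Promoters spread further than other windows in both directions. A centred difference below -10 points was found in 14.4% of autosomal promoter windows and one above 10 points in 10.1%. With ratio scaling these shares became 14.5% and 15.2%, so that the surplus on the lower side was no longer there. Multiplying the knockdown also widens its scatter in every window, and no share of all windows is given with ratio scaling. The larger upper share is therefore not read as a result about promoters.

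The same dependence on level ran through the promoter classes. Promoters of coding genes were called island-like where the 1 kb around the start site had at least 50% GC and a CpG content of at least 0.6 of that expected, CpG-poor below 0.4, and intermediate otherwise. Island-like promoters, which many housekeeping and developmental genes have, averaged 25.55% in Nons and 20.72% in the knockdown. Intermediate promoters averaged 21.97% and 17.38%, and CpG-poor promoters, which many tissue-specific genes have, 15.29% and 12.12%. The centred medians were -2.11, -1.97 and -0.320 points, which puts island-like promoters 1.79 points below CpG-poor ones (SD over autosomes 0.730, lower on 19 of 19 autosomes). By the ratio of means island-like promoters were the highest class, with 0.811 (SD over autosomes 0.0168), where all autosomal windows had 0.808. Intermediate promoters had 0.791 (SD 0.0472) and CpG-poor promoters 0.793 (SD 0.0209). Each SD is the spread of single autosomes and not the error of the pooled ratio. The island-like ratio was above the CpG-poor one on 13 of 19 autosomes, by 0.0165 on average (SD over autosomes 0.0299). After ratio scaling the class contrast was 0.187 points, the opposite sign. Sorting coding promoters into 5 equal groups by their level in the other 7 libraries gave centred medians of -0.110 points in the lowest and -2.52 in the highest group, with ratios of 0.793 and 0.821.

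Coding and lncRNA promoters had different levels and similar ratios. Windows with a coding start alone averaged 20.57% in Nons and 16.48% in the knockdown (ratio 0.801, SD over autosomes 0.0132), and windows with an lncRNA start alone 15.91% and 12.76% (ratio 0.802, SD 0.0144). Divergent pairs of coding genes, whose start sites lie within 1 kb of each other on opposite strands, were the most accessible of these groups, at 27.36% and 21.57% in 638 autosomal windows. Their centred median was -2.61 points and their ratio 0.788. The SD over autosomes was 0.0693, a spread of single autosomes with few such windows each. On the X, 1047 promoter windows averaged 19.68% in Nons and 15.52% in the knockdown, a ratio of 0.788 and a centred median of -0.757 points. X windows outside promoters had a ratio of 0.808. Over all windows the X minus autosome difference was 0.0474 points, against an SD over autosomes of 0.0428.

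Outside promoters, windows in exons had the higher ratio. Exon windows averaged 14.78% in Nons and 12.09% in the knockdown (ratio 0.818, SD over autosomes 0.00566), intron windows 14.31% and 11.57% (ratio 0.809, SD 0.00477) and intergenic windows 14.34% and 11.51% (ratio 0.803, SD 0.00261). The exon ratio exceeded the intergenic ratio on 19 of 19 autosomes, by 0.0144 on average (SD over autosomes 0.00688). Divided by the autosomal ratio of the same day, the exon and intergenic values for day 4 were 1.013 and 0.994, those for day 5 were 1.0 and 1.005, those for day 6 were 1.012 and 0.999 and those for day 7 were 1.028 and 0.986. The exon ratio was the higher one on 6 autosomes at day 5, 16 at day 6 and 19 at day 7, so the order at day 4 recurred at days 6 and 7 and not at day 5. Exon windows were richer in GC than intergenic ones (45.0% and 41.7%) and held more informative GpC cytosines (92.5 and 78.4 per kb), and the part of base composition in this contrast was not tested.

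Distance from the nearest coding start site gave the same picture. The mean centred difference was -1.32 points where the window held a start site, -0.519 within 2 kb upstream, -0.734 within 2 kb downstream, and 0.102 and 0.169 at 10 to 20 kb upstream and downstream. In levels, windows with a start site averaged 20.85% in Nons and 16.73% in the knockdown, and those at 10 to 20 kb downstream 14.62% and 11.99%. The ratio was 0.802 at start sites (SD over autosomes 0.0120), 0.816 and 0.820 at 10 to 20 kb upstream and downstream, 0.815 at 20 to 50 kb, 0.808 at 50 to 100 kb and 0.7995 beyond 100 kb (SD 0.00422). The ratio at 10 to 20 kb was above that beyond 100 kb on 19 of 19 autosomes, by 0.0193 on average (SD over autosomes 0.00984), and above that at start sites on 17 of 19, by 0.0165 (SD 0.0121). In island-like promoters the accessibility peak was kept as a proportion and was lower in points. Windows centred at the start site stood at 27.51% in Nons and 22.41% in the knockdown, and those 10 kb downstream at 15.04% and 12.41%, a height of 12.47 points in Nons and 10.01 in the knockdown. At day 0 the levels were 22.72% at the start site and 12.5% at 10 kb, near those of the knockdown. The level at the start site was 1.83 times that at 10 kb in Nons, 1.81 times in the knockdown and 1.82 times at day 0.

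**Figure D2:**
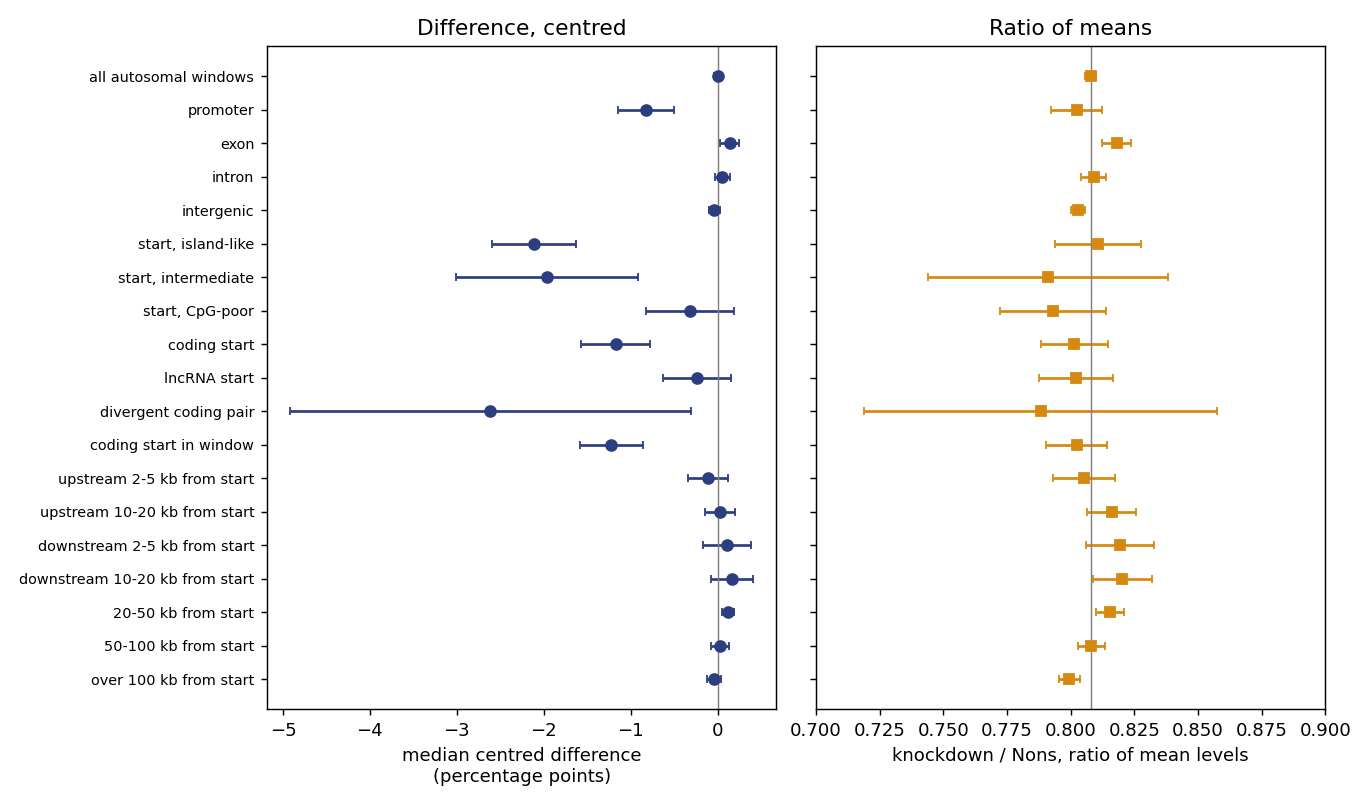
Left, median centred difference, knockdown minus Nons at day 4 (percentage points), and right, knockdown-to-Nons ratio of mean GpC methylation, for groups of autosomal windows by annotation, promoter class and distance to the nearest coding start site. Bars are SDs over the 19 autosomes, and grey lines mark 0 and the ratio of all autosomal windows (0.808). Groups of high level, such as island-like promoters (-2.11 points), lie left of 0 on the left and around the line on the right, where exons (0.818) and windows over 100 kb from a start (0.7995) lie on opposite sides.

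The promoter windows of the genes central to the study differed among themselves. The window at the Smarcc1 start (chr9:110117185-110119155, shared with the start of the RNA helicase gene Dhx30) had 26.72% in Nons, 16.67% in the knockdown and 27.27% at day 0, a centred difference of -7.26 points. Over the Smarcc1 gene body, 45 windows averaged 17.36% and 15.35%, a centred mean of 0.783 points (SE over windows 1.15). Of them 29 were lower in the knockdown, near the 66.0% of all autosomal windows. The window of Xist, the RNA that coats the inactive X, had 23.93% in Nons and 20.13% in the knockdown, a centred difference of -1.001 points that became 1.35 with ratio scaling. Tsix, its antisense repressor, was higher in the knockdown, with 11.34% and 24.11% (centred 15.6 points). Hprt, an X-linked housekeeping gene, had 23.53% and 31.03% (centred 10.3 points) after 70.0% at day 0. A centred difference just past 10 points in 1 window is not unusual among coding promoters, of which 17.0% lay below -10 points and 11.2% above 10 points. Xist and Tsix are lncRNA genes, and of autosomal windows with an lncRNA start alone 9.65% and 8.05% lay past these limits. Above 15 points, where Tsix lay, were 3.90% of autosomal promoter windows of both kinds.

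The most extreme coding promoters were taken from 19797 windows of at most 10 kb with neither library at 0 or 100%. Among the 10 lowest by centred difference, Nons lay between 52.1% and 78.3% and the knockdown between 3.12% and 24.4%. Chpf2, which acts in chondroitin sulfate synthesis, had 76.32% in Nons and 13.79% in the knockdown after 11.67% at day 0. Nkain1, whose protein binds a sodium pump subunit, had 66.67% and 7.14%. Zfp367, a zinc-finger gene, had 78.33% and 24.44%, with 81.82% at day 0. Ficd, whose protein modifies the endoplasmic reticulum chaperone BiP, had 59.57% and 7.32%, and the window shared by Zfp142 and Bcs1l, the latter an assembly factor of respiratory complex III, had 67.16% and 15.91%. Nfkbil1, Marcksl1 (an actin regulator), Dop1b, Zbtb20 (a transcriptional repressor) and Bmp6 (a secreted ligand) made up the rest, with centred differences from -47.4 to -45.7 points.

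Among the 10 highest, Nons lay between 4.62% and 40.7% and the knockdown between 51.2% and 86.4%. Zmym5, a zinc-finger gene, had 15.09% in Nons and 74.55% in the knockdown after 13.33% at day 0, and Mblac2 had 18.56% and 73.33%. Tmem200b had 4.62% and 55.0%. The window shared by Crat (carnitine acetyltransferase) and Ptpa (an activator of phosphatase 2A) had 40.74% and 86.36%. Kdm1a, the histone demethylase LSD1, had 14.52% and 55.17%, and Cyp26a1, which breaks down retinoic acid, had 24.14% and 65.62%. Aph1c (a gamma-secretase subunit), Tshz3, Gphn (gephyrin, a synaptic scaffold) and Cbr3 completed the group. All but 1 of the 20 windows, that of Nfkbil1, were island-like. This class held 8573 of 19346 autosomal coding promoter windows and spread further in both directions. Of its windows 24.0% lay below -10 points and 14.8% above 10, compared with 9.13% and 7.775% of CpG-poor ones.

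These windows were chosen on the 2 libraries compared, so their levels in those libraries are a description. In the libraries of later days, which the choice did not use, both directions were found. The centred difference of the 10 lowest windows was negative in 6, 6 and 4 windows at days 5, 6 and 7. That of the 10 highest was positive in 5 of 10, 6 of 10 and 5 of 9 windows with a value.

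**Figure D3:**
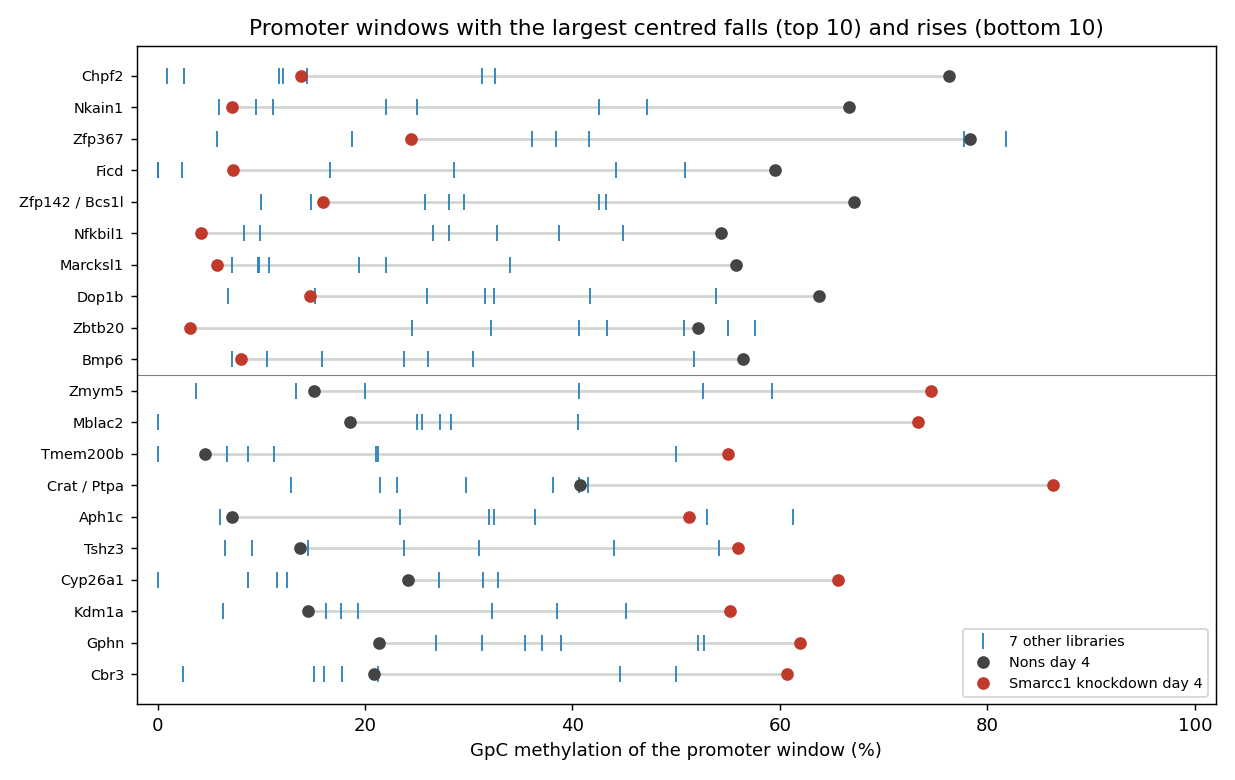
GpC methylation (percent) of the promoter windows with the 10 lowest (upper rows) and 10 highest (lower rows) centred differences, in Nons and Smarcc1 knockdown at day 4 (points) and in the 7 other libraries where a value exists (ticks). The rows were chosen on the 2 libraries of day 4, with Nons between 52.1% and 78.3% in the upper rows and the knockdown between 51.2% and 86.4% in the lower ones.

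The start-proximal sequence of these windows is shown to let the substrate of the assay be seen. The 250 bases before the RefSeq start site (GRCm38.p6) are given 5′ to 3′ on the strand of the gene for the 2 lowest and 2 highest windows and the lowest histone window of chromosome 13 whose upstream bases lay wholly in the window and outside annotated exons, and for Hprt. Capitals mark GpC dinucleotides with an informative cytosine, that is GCA, GCC or GCT on either strand.
Ficd, chr5:113735532-113735781, plus strand: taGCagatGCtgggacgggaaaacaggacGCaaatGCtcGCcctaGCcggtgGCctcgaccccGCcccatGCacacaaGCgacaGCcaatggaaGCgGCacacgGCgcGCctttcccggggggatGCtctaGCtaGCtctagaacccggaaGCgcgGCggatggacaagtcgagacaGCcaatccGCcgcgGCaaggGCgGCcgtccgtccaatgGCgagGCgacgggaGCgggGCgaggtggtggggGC
Marcksl1, chr4:129513331-129513580, plus strand: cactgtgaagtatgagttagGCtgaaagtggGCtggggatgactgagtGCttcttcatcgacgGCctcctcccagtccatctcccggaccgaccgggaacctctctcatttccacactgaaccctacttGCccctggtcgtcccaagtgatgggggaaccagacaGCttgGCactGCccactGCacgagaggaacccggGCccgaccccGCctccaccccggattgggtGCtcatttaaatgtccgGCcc
Zmym5, chr14:56811717-56811966, minus strand: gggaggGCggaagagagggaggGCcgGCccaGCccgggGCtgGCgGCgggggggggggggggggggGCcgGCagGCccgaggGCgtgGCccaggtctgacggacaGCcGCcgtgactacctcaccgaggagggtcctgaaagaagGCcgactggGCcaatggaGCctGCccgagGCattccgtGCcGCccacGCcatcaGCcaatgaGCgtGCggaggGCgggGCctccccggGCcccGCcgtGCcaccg
Tmem200b, chr4:131921521-131921770, plus strand: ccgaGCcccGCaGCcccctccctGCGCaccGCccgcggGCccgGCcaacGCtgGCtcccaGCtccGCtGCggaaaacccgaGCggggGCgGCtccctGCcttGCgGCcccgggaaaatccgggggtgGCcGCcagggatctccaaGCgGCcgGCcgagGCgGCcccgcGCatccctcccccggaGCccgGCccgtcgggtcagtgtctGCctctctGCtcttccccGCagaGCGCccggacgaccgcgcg
Hist1h3e, chr13:23562386-23562635, minus strand: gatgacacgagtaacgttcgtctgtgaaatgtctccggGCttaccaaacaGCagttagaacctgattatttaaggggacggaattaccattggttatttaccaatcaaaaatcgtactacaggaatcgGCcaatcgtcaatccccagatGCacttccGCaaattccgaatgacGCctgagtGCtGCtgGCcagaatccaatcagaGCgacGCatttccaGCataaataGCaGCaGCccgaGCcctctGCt
Hprt, chrX:52987828-52988077, plus strand: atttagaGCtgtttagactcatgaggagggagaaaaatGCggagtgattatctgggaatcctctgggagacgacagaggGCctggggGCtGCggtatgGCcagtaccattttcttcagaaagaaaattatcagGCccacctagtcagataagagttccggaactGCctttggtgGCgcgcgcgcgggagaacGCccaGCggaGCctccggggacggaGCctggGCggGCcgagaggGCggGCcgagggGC
These stretches held 44, 25, 49, 51, 30 and 28 informative GpC cytosines in the order given, counted over both strands, against a median of 28 over 32585 RefSeq promoters of the same length, of which 99.97% held at least 1. Ficd, with the lower level in the knockdown, and Zmym5, with the higher one, both had more than the median number, and Marcksl1 had fewer.

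Lists of functionally related genes were then compared by the windows at their start sites. Members named below were picked from both ends of each list by their centred difference in these 2 libraries. That named members differed in both directions follows from this choice. In 14 of 20 lists the centred median was negative, 11 with ratio scaling. All autosomal windows with a coding start had medians of -1.22 points and, with ratio scaling, -0.267. A list median below 0 was thus not in itself a low one. Replication-dependent histone genes, which package newly made DNA and lie mostly in a cluster on chromosome 13, stood lowest. Their 50 windows averaged 37.2% in Nons and 26.4% in the knockdown, a ratio of 0.711 or 0.880 of the autosomal ratio. They were lower in the knockdown in 44 of 50 windows, where 66.9% of autosomal island-like promoters were. Of the 50 windows 17 (34%) lay below -10 points centred and 1 (2%) above 10. These shares were 17.0% and 11.2% among all coding promoters and 24.0% and 14.8% among autosomal island-like ones. In the fifth of autosomal coding promoters with the highest level in the other 7 libraries they were 27.3% and 16.3%. The centred median was -7.57 points and -3.70 after ratio scaling, compared with -2.11 and -0.0776 in island-like promoters as a whole. Hist1h3e, a histone H3 gene, had 63.06% in Nons and 28.57% in the knockdown. The window shared by Hist2h3c2 and Hist2h2aa2 on chromosome 3 had 52.75% and 11.54%, although near-identical copies of these genes may share reads. At the other end Hist2h3b had 29.17% and 38.64%. The 40 windows on chromosome 13 had a ratio of 0.704 and the 10 elsewhere 0.742. At days 5, 6 and 7 the ratio of this list, divided by the autosomal ratio of the day, was 0.958, 1.09 and 0.976, so the low position at day 4 was not seen at day 6.

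Other lists on the low side were imprinted genes (29 windows, 23.03% and 17.54%, centred median -4.30 points and -3.31 with ratio scaling), mesoderm and endoderm genes (24 windows, 22.46% and 16.96%, -3.96 and -3.20), Polycomb group genes (32 windows, 26.74% and 20.37%, -3.52 and -2.60) and genes that escape X inactivation (14 windows, 26.87% and 19.92%, -2.58 and -0.420). With ratio scaling 7 of the 14 windows of escape genes were below 0. In the order given, 20.7%, 20.8%, 34.4% and 28.6% of the windows lay below -10 points. Above 10 points lay 10.3%, 8.33%, 21.9% and 14.3%, where all coding promoters had 17.0% and 11.2%. Among imprinted genes the shared window of Peg3 and Usp29 had 56.48% in Nons and 32.1% in the knockdown, while Mkrn3 had 25.35% and 58.7%. Of the mesoderm and endoderm regulators, Sox7 had 35.37% and 19.05% and Evx1 29.29% and 13.16%, while Eomes had 10.2% and 22.95% and Hhex 14.39% and 27.78%. In the Polycomb list Pcgf3 (a PRC1 subunit) had 51.81% and 15.38% and Rbbp4 (a histone chaperone of PRC2) 43.7% and 10.71%, and in the opposite direction Ezh2, the PRC2 methyltransferase, had 18.6% and 38.3% and Rbbp7 37.33% and 59.05%. Among escape genes Ddx3x, an RNA helicase, had 50.34% and 14.77%, and Kdm5c, a histone demethylase, 22.76% and 34.07%.

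Genes of the BAF complex itself lay near the autosomal proportion, with 26.44% in Nons and 20.82% in the knockdown over 28 windows (0.975 of the autosomal ratio). Of these windows 7 (25%) lay below -10 points and 4 (14.3%) above 10. That is close to the 24.0% and 14.8% of autosomal island-like promoters, where all coding promoters had 17.0% and 11.2%. The 2 alternative ATPase genes were the ends of the list, with Smarca2 (BRM) at 44.16% and 13.73% and Smarca4 (BRG1) at 16.9% and 41.05%. At days 5, 6 and 7 the centred differences were 12.7, -1.50 and -5.92 points for Smarca2. For Smarca4 they were -4.02, 5.78 and 6.60 points, so both had the other sign at day 5. Ss18 had 44.34% and 15.79% and Bcl7c 15.38% and 36.11%. Other remodeller genes averaged 29.23% and 25.37% (1.075 of the autosomal ratio), with Mbd3, a NuRD subunit, at 80.39% and 35.09% and Chd5 at 12.05% and 32.61%. Cytosolic ribosomal protein genes (76 windows) averaged 28.87% and 23.22%, at 0.995 of the autosomal ratio with a centred median of -3.56 points that became -0.412 with ratio scaling. Nuclear genes of the respiratory chain (93 windows) averaged 24.12% and 18.89% (0.969), and Zfp zinc-finger genes (383 windows) 23.77% and 19.66% (1.024).

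On the high side were clustered protocadherins (57 windows, 19.42% in Nons and 17.51% in the knockdown, 1.117 of the autosomal ratio), which give neurons their surface identity, Hox genes (36 windows, 19.84% and 17.32%, 1.081), Wnt, Fgf and Bmp ligands (52 windows, 18.65% and 16.19%, 1.075) and neural and ectoderm genes (22 windows, 23.73% and 20.31%, 1.060). Their centred medians were 1.30, 0.890, 1.87 and 0.669 points. With ratio scaling they were 3.48, 2.36, 2.44 and 3.77 points, and with only windows centred within 1 kb of the start the protocadherin median was 2.60 and the neural one 5.17. All 4 relative ratios were below 1 at day 6 and at day 7. Within these lists the spread was wide. In the order given, 14.0%, 19.4%, 9.62% and 27.3% of the windows lay below -10 points. Above 10 points lay 15.8%, 8.33%, 17.3% and 31.8%, where all coding promoters had 17.0% and 11.2%. Hoxd8 had 9.26% in Nons and 26.09% in the knockdown, and Hoxb9 37.5% and 19.51%. En2, a homeobox gene of the midbrain and hindbrain, had 4.86% and 22.64%, and Nkx2-2, of the ventral neural tube, 45.92% and 15.12%. The Hox median turned to -2.08 points when only windows centred within 1 kb of the start were kept.

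Genes of the naive network had a centred median of 1.94 points (24 windows, 25.25% and 20.75%), with 5 windows (20.8%) below -10 points and 3 (12.5%) above 10, near the 17.0% and 11.2% of all coding promoters. Utf1 had 44.83% and 13.92% and Tet2, a 5-methylcytosine oxidase, 45.45% and 15.07%, while Zfp42 (Rex1), a marker of the naive state, had 20.69% and 34.72% and Nr5a2 4.71% and 14.65%. Primed and formative genes had 0.423 points (18 windows, 25.78% and 20.04%), with Pou3f1 (Oct6) at 34.88% and 0% and Grhl2 at 28.05% and 42.62%. The 0% of Pou3f1 is the floor of the measure, in a window of unknown depth. Regulators of X inactivation averaged 30.38% and 25.44% over 25 windows. Among them Spen, a repressor that Xist RNA binds, had 47.95% and 13.64% and Hdac3 52.05% and 25.68%, while Ctcf had 18.52% and 36.36% and Hnrnpu 31.87% and 52.27%. Their centred median of -1.001 points changed sign with ratio scaling.

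Families restricted to sensory neurons or epithelia had low levels in both libraries. Olfactory receptor genes (1119 windows) averaged 14.17% in Nons and 11.26% in the knockdown, 0.984 of the autosomal ratio, with 67 windows (5.99%) below -10 points and 70 (6.26%) above 10, compared with 7.65% and 7.59% of all windows. Vomeronasal receptors (319 windows, 13.96% and 10.79%) stood at 0.957 and keratins (110 windows, 14.62% and 11.44%) at 0.969. Olfr952 had 28.95% and 5.13% and Vmn1r120 29.79% and 4.69%, while Olfr1076 had 3.95% and 18.99% and Vmn1r76 9.88% and 28.57%, all picked from the ends of their lists.

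**Figure D4:**
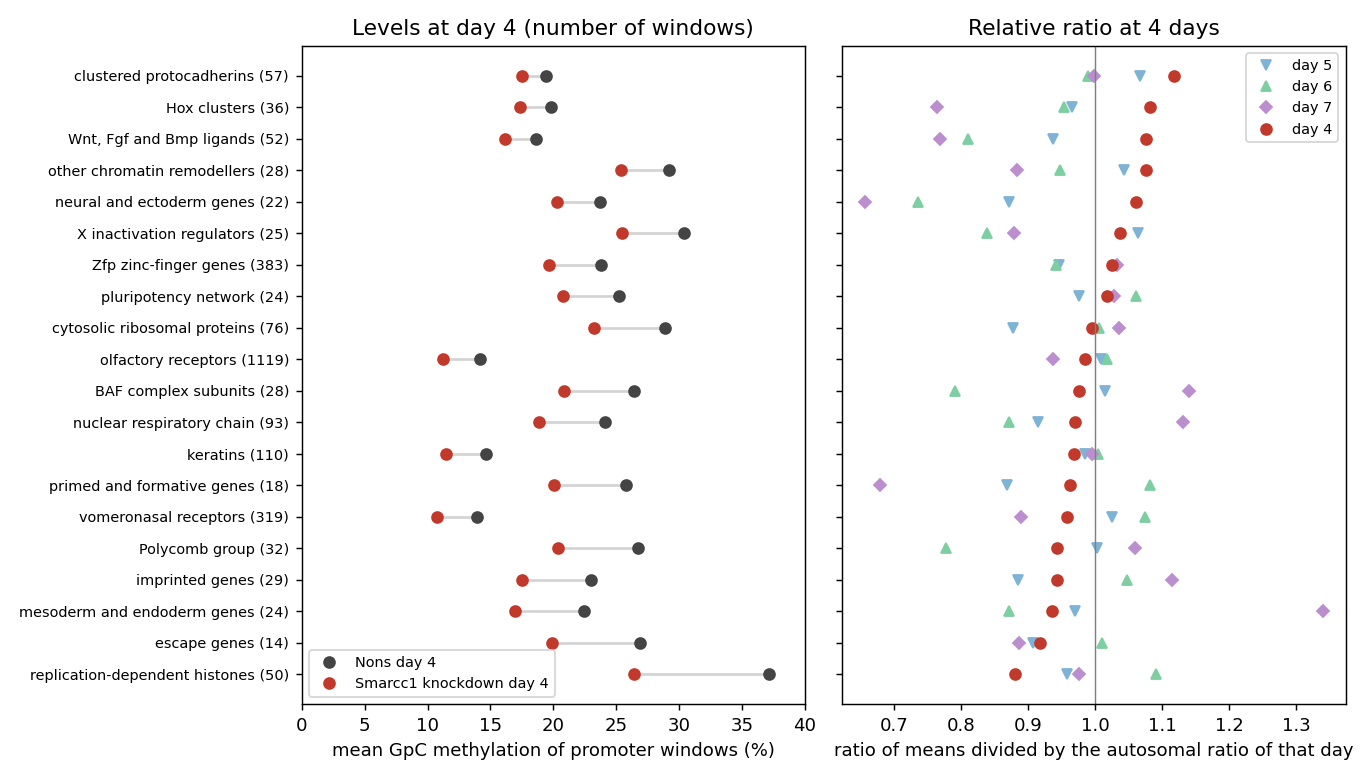
Left, mean GpC methylation (percent) of promoter windows in 20 gene lists in Nons and Smarcc1 knockdown at day 4, with the number of windows. Right, knockdown-to-Nons ratio of means divided by the autosomal ratio of that day, at days 4 to 7. Histone genes lie lowest at day 4 (0.880) and clustered protocadherins highest (1.117), and the other days scatter around 1 in another order.

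Over 3243 coding genes with at least 30 windows in the body, the centred means had an SD of 1.04 points, where the median SE over a gene's own windows was 0.959. The lowest were Pawr, a pro-apoptotic regulator (18.77% in Nons and 11.66% in the knockdown over 30 windows, centred -4.32 points, SE 1.35), Heph (hephaestin, a copper-dependent iron oxidase), the TGF-beta receptor gene Tgfbr2, the mitochondrial co-chaperone gene Dnaja3 and Prdm1 (Blimp1, a germ-cell and B-cell repressor), the last at -3.27 points. The highest were Smg1, a kinase of nonsense-mediated decay (14.07% and 15.65% over 39 windows, centred 4.37 points, SE 1.002), Gpr107, the dynein gene Dnah1, Gcn1l1 and Gm49387, the last at 4.06 points. In these 5 genes the knockdown was the higher library even before centring. At days 5, 6 and 7 Prdm1 (-1.12, -2.08 and -1.39 points) and Gpr107 (0.384, 2.22 and 0.213) had the sign of day 4 each time. Pawr (-3.35, -1.87 and 1.51) and Gm49387 (3.98, 2.44 and -0.0426) had it at days 5 and 6, while Tgfbr2 (-1.86, 0.464 and 0.849) and Smg1 (0.806, -0.574 and 0.839) each changed sign. Across the 3243 genes the correlation of the day 4 difference with that of days 5, 6 and 7, which come from other libraries, was 0.0661, 0.0389 and 0.0297.

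The 1 Mb bins differed little more than their windows allow. Their centred means had an SD of 0.426 points, with a median SE over the windows of a bin of 0.389, and 34 of 2548 bins lay below -1 point and 29 above 1. With ratio scaling these counts were 27 and 144. The scaling factor came from autosomal medians while bins were summarised by means, so ratio-scaled bin means need not centre on 0. The scaling also widens the scatter of the knockdown, so the larger upper count is not read as a gain of accessibility. The ratio of means ran from 0.710 to 0.905 over bins. The lowest was on the X at 90 to 91 Mb (15.5% in Nons and 11.09% in the knockdown, centred -1.62 points, SE 0.495), with the single coding gene Gm44. Next were bins on chromosome 14 at 50 Mb (-1.61 points), which holds an olfactory receptor cluster with Parp2 and Apex1, and on chromosome 13 at 23 Mb (18.26% and 13.94%, -1.53 points and -0.756 with ratio scaling), which holds much of the Hist1 cluster beside vomeronasal receptor genes, then chromosome 14 at 41 Mb and chromosome 5 at 109 Mb. The highest was on chromosome 6 at 123 Mb (13.05% and 11.81%, centred 1.56 points), with the lectin genes Clec4d and Clec4e and vomeronasal receptors. The others were chromosome 6 at 4 Mb (1.35 points, with the imprinted genes Peg10 and Sgce), chromosome 5 at 11 Mb, the X at 52 Mb (14.8% and 13.28%, 1.28 points, with Gpc3, Gpc4, Phf6 and Hprt) and chromosome 14 at 7 Mb.

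Over the 2548 bins the correlation of the day 4 difference with the differences of days 5, 6 and 7 was -0.0181, 0.0518 and 0.0806. These pairs shared no library but did share GC content and window positions, and with GC content held constant the values were 0.0306, 0.0294 and 0.0235. The level itself was stable along the genome, with a correlation of 0.824 between Nons and the knockdown at day 4. The centred difference correlated with GC content at 0.112 and with the level in the 7 other libraries at 0.00641, and the ratio of means with these at 0.162 and 0.277. Over bins the difference in points was thus less related to the level than the ratio was, unlike in the groups of windows ordered by level.

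**Figure D5:**
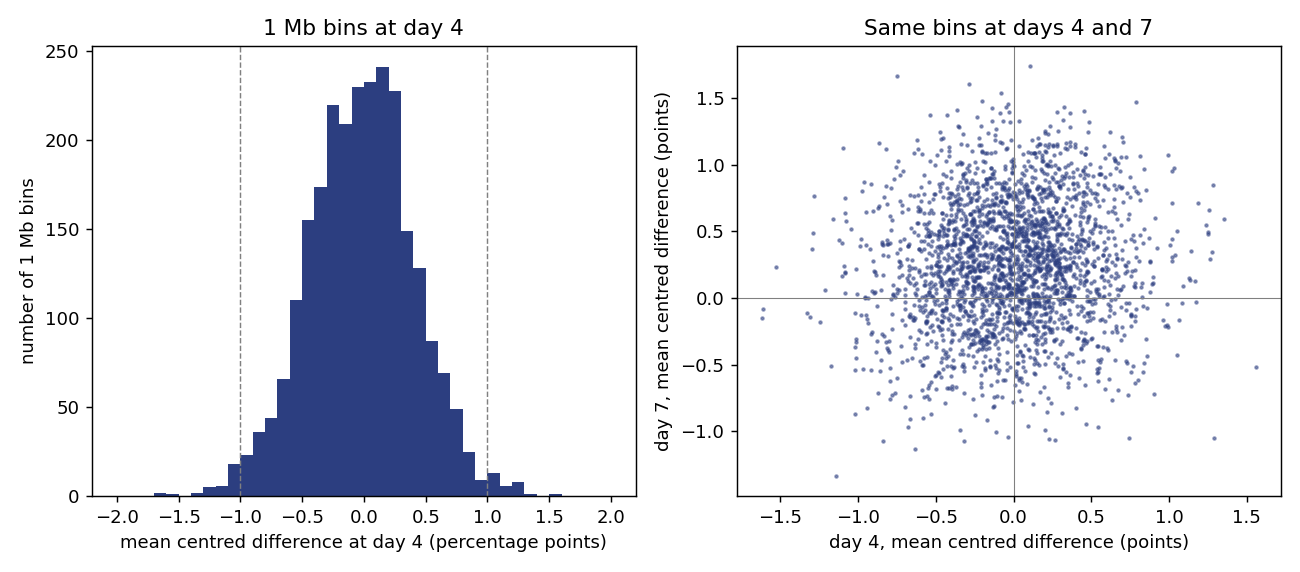
Left, number of 1 Mb bins by mean centred difference between Smarcc1 knockdown and Nons at day 4 (percentage points), with dashed lines at -1 and 1, beyond which lie 34 and 29 of 2548 bins. Right, the same bins at day 4 (x axis) and day 7 (y axis), with a correlation of 0.0806.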

How the data were processed

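NOMe-seq libraries of female FVB/CAST F1 mESCs were compared at day 4, Smarcc1 knockdown against Nons, grouped by the sample titles. Each deposited value is a percent, the methylated share of a window's GpC calls. The authors used trim_galore for trimming and Bismark for alignment to mm10 with FVB and CAST variants masked, then quantified windows in Seqmonk on informative GpC positions with both alleles merged. Versions of bcl2fastq and Bismark are not given in the sources used here. The percent values were not normalized between libraries, and no read counts were given, so the depth and its precision are unknown.

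Windows were annotated with GENCODE M21 on GRCm38, with 34568 coding and lncRNA genes, in the order promoter, exon, intron, intergenic. A window with several coding starts took the most CpG-rich class among them. Calculations used Python 3.11.15, numpy, pandas and scipy, and were tested on simulated data. Window values were centred on the autosomal median difference. Named were Smarcc1, Xist, Tsix and Hprt, the 10 largest falls and rises among coding promoters, up to 2 genes at either end of each of the 20 lists, and the 5 lowest and highest gene bodies and 1 Mb bins. The comparison, gene lists and members were chosen with earlier results of these data known. Alternatives were ratio scaling, quantile normalization, means, other window filters, promoter definitions, thresholds and bin sizes. Files of the study's own allele-specific comparisons were not used here.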

Additional observations from a re-analysis of the deposited data

Results flagged for a closer look

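The library-wide difference had another direction at days 6 and 7. The median autosomal difference, knockdown minus Nons, was -2.80 percentage points at day 4, against a value of 1.497 points for day 6 and of 0.657 points for day 7. At day 5 the autosomal medians were 21.21% in Nons and 20.2% in the knockdown, the same direction as at day 4. The difference between days was not tested, since there was 1 library per arm and day.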

How the results depend on the processing

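The median autosomal difference kept its direction and size under 4 alternatives, from -2.81 to -2.77 points. Ratio scaling changed most: the promoter excess became -0.179 points, the CpG class contrast turned to 0.187, the start site contrast (start-site windows minus those at 10 to 20 kb) went from -1.46 to -0.248, and 171 in place of 63 bins of 1 Mb passed 1 point. For bins the factor, taken from medians, was applied to means, so ratio-scaled bins need not centre on 0. Other alternatives left the promoter excess and the class contrast within the SD over autosomes, and the start site contrast was also run with quantile normalization (-1.31) and medians (-1.33). Medians gave 126 bins and bins of 2 Mb gave 5. The X minus autosome difference was -0.0101 points as a mean, a threshold of 15 points left 6.33% of promoter windows on the lower side, and strata by the day 0 library gave a slope of 0.833. List medians that changed sign were, with ratio scaling, other remodellers (0.498), X inactivation regulators (2.53) and Zfp genes (0.802), and, with windows centred within 1 kb of the start, X inactivation regulators (2.43), Hox genes (-2.08) and vomeronasal receptors (0.0452). The Xist window turned to 1.35 points with ratio scaling. Scaling of single windows, gene bodies and bins was added after seeing the data.

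With 1 library per arm, 1 hairpin and unknown depth, no difference has a replicate check, and the windows' scatter holds counting noise of unknown size. No paired analysis was possible because day 4 holds 1 pair of libraries and the same-day pairs of days 5, 6 and 7 are other time points.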

Other observations

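Windows on the Y chromosome, which female cells lack, carried values in both libraries. Of 246 windows, 244 had a value in both, with a mean of 13.83% in Nons and 12.54% in the knockdown and a ratio of 0.907, compared with 0.808 on the autosomes. The origin of these reads was not tested.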
